A study of Zea mays with 3 samples.

Results

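The 9 maize genes described here are copies of core circadian clock genes, measured in roots of seedlings that had received urea together with the urease inhibitor NBPT (Urea+NBPT). They were taken from a fixed list of gene identifiers, given as the cca1 and lhy1 copies, 2 gi copies, 2 toc1 copies and 3 PRR genes, and every transcript of these genes on the array was used. This gave 25 transcripts in 55 probes, of 59756 transcripts in 139000 probes from 39219 genes on the whole array. The list is read in its given order, so GRMZM2G474769 and GRMZM2G014902 are the cca1 and lhy1 pair, and which of them is which is not settled by the sources used here. The reference gene table names GRMZM2G107101 as gigantea1 (gigz1a), GRMZM5G844173 as gigz1b and GRMZM2G135446 as PRR59. It holds GRMZM2G474769, GRMZM2G014902, GRMZM2G020081 and GRMZM2G095727 without a clock name, and GRMZM2G148453 and GRMZM2G005732 were not matched in it.

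Seeds of PR33T56, called a hybrid in the labels and an inbred line in the methods, germinated for 3 days in the dark at 25°C. The seedlings were only then moved to hydroponics with a 16 h day at 25°C and an 8 h night at 20°C. At 5 days of age they received 0.5 mM urea with 0.897 μM NBPT for 8 h, and roots were frozen 9 h after the lights came on. Each of the 3 replicates was a pool of roots of 6 plants from a separate experiment, hybridized to its own one-color NimbleGen array. Urea roots without the inhibitor were not analysed here, and neither was a second time of day, so no effect of NBPT and no rhythm was measured.

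The plant clock is a loop of transcription factors that repress each other in turn over the day. In Arabidopsis, CCA1 and LHY are MYB factors that peak around dawn and repress the evening genes, among them TOC1 and GIGANTEA. The PRR proteins, of which TOC1 is one, accumulate in sequence through the day and repress CCA1 and LHY, while GIGANTEA stabilizes a blue-light receptor that targets TOC1 for degradation. For this reason the cca1 and lhy1 pair is called morning genes below, and the gi and toc1 copies evening genes. The genes were described by role, and the question put to the replicates was whether morning and evening genes shifted against each other.

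Levels are log2 values of the normalized intensity, summarized over the 2 or 3 probes of a transcript. Probes bind with different strength, so a level was compared only with itself in another array or with the 1663 random control probes, and never with the level of another transcript. The 95th percentile of those controls is called the control threshold below and was 8.24, 8.30 and 8.24 in replicates 1, 2 and 3. Detection required a level over it in every array. In the root marker list 7 of 8 transcripts were detected, beside 62.6% of all transcripts of the array. Among them were those of rth3, a root hair gene, rtcs1, a regulator of crown root formation, and ys1, an iron-phytosiderophore transporter. The root list transcript not detected, GRMZM2G436299_T01, was above the control threshold in 1 array. Of 9 transcripts of the green leaf list 5 were detected, those of pep1, ppdk1 and me3, while 0 of 4 transcripts of the rbcS genes, which encode the small subunit of Rubisco, were above the control threshold in any array. Replicate 2 stood apart on the whole array: 676 detected transcripts were higher there by over 1 than in the other arrays on average, against 54 for replicate 1 and 115 for replicate 3.

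All 9 clock genes had at least 1 detected transcript in Urea+NBPT roots, and 22 of their 25 transcripts (88%) were detected. Over the whole array 67.9% of genes had a detected transcript and 62.6% of transcripts were detected. Genes with more transcripts have more chances to be detected, and the clock genes had between 1 and 6. By limma, 21 of the 25 transcripts lay above the control threshold at an adjusted p under 0.05, against 61.3% of all transcripts. The test was one-sided, with Benjamini-Hochberg adjustment over all transcripts. It took the threshold of each array as fixed, so its p reflects the spread between replicates and not that of the control probes. The transcripts not detected were GRMZM2G107101_T05 of gigz1a, GRMZM2G020081_T03 of a toc1 copy and GRMZM2G135446_T01 of PRR59. GRMZM2G005732_T01 of a PRR gene was detected but not called by limma (adjusted p = 0.148). With a stricter threshold at the 99th percentile, 18 transcripts were detected, and each of the 9 genes still had 1 or more among them, beside 47.4% of all transcripts and 52.9% of all genes.

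**Figure D1:**
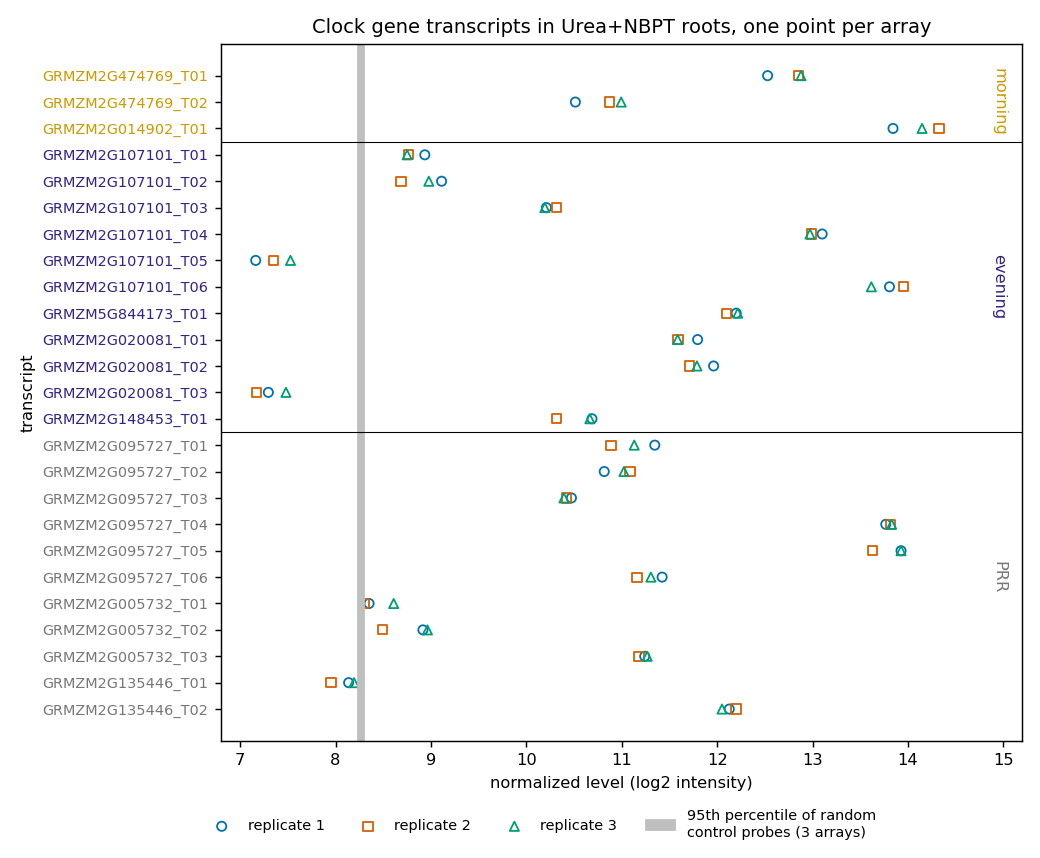
Normalized level (log2 intensity, x axis) of each of the 25 clock gene transcripts, 1 point per array, with the control threshold of the arrays as a grey band. In the 3 transcripts of the morning genes, replicate 1 (circle) lies left of the other replicates, and 3 transcripts lie left of the band in all arrays.

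The morning genes were both well above the random control probes, and replicate 1 was the lowest array in each of their 3 transcripts. GRMZM2G014902_T01 had levels of 13.84, 14.32 and 14.15 in replicates 1, 2 and 3, with a mean of 14.11 ± 0.24 (SD, n = 3). It lay 5.85 ± 0.11 (SE) above the control threshold (limma, adjusted p = 9.7e-07), and the gap between replicate 1 and the mean of the others was 0.39.

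GRMZM2G474769 showed the same order of replicate 1 against the others in both of its transcripts. GRMZM2G474769_T01 had levels of 12.53, 12.85 and 12.88 in replicates 1, 2 and 3, or 12.75 ± 0.19 (SD, n = 3). GRMZM2G474769_T02 had levels of 10.51, 10.87 and 10.99, or 10.79 ± 0.25 (SD, n = 3). In both, the values of replicates 2 and 3 lay closer to each other than to that of replicate 1. They exceeded the control threshold by 4.49 and 2.53 (limma, adjusted p = 1.28e-06 and 1.33e-05).

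The low value of replicate 1 was present in every probe of the morning genes. In the deposited intensities, the brightest probe of GRMZM2G474769_T01 had 16716, 19406 and 20246 in replicates 1, 2 and 3. The brightest probe of GRMZM2G014902_T01 had 17458, 24483 and 21561, and its dimmest had 1490, 1898 and 2004. Bright and dim probes thus ranked replicate 1 lowest alike. All 7 probes of the morning genes lay above the control threshold in all arrays, and replicate 1 was the lowest in 7 of 7, with a median deviation of -0.26 from the probe's mean over the arrays. On the whole array 57.5% of probes lay above it in all arrays, and replicate 1 was the lowest in 27.9% of these. Among such probes, replicate 1 was the lowest in 4 of 15 of the evening genes and in 5 of 18 of the PRR genes. The probes of a gene share their RNA sample and are not replicates.

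**Figure D2:**
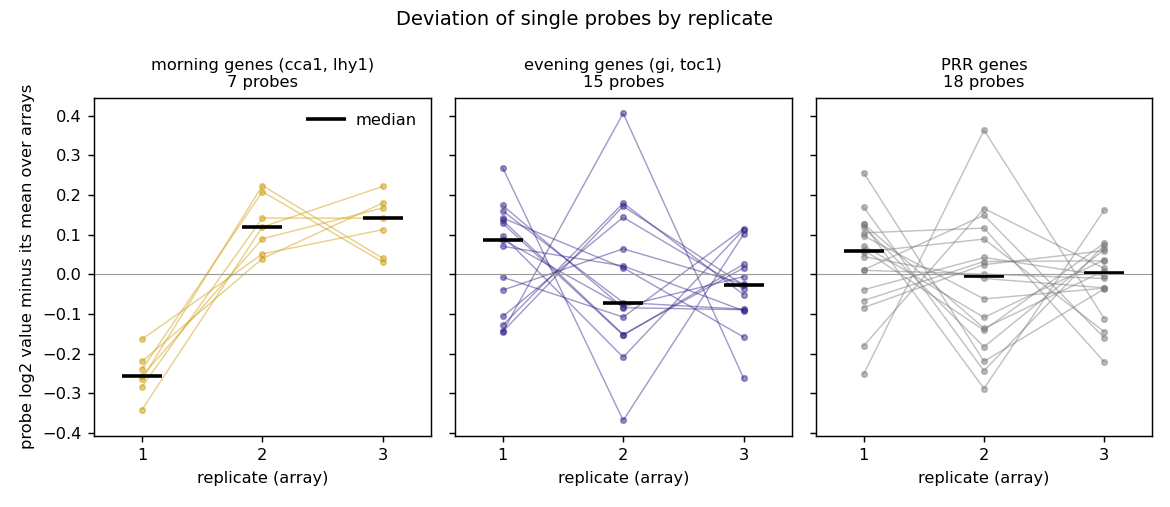
Log2 value of single probes minus the probe's mean over the arrays (y axis) for replicates 1, 2 and 3 (x axis), for probes above the random control probes in all arrays. Thin lines join the values of 1 probe and black bars are medians; all 7 morning probes lie below 0 in replicate 1, while the 15 evening and 18 PRR probes lie on both sides of 0 in every replicate.

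Replicate 1 lay more than 0.3 below the mean of the others in 3 of 3 detected transcripts of the morning genes, in 0 of 9 of the evening genes and in 0 of 10 of the PRR genes. With a correction for a smooth gradient over the array surface, replicate 1 minus the others went from -0.39 to -0.24 in GRMZM2G014902 and from -0.38 to -0.33 in GRMZM2G474769. The 0.3 difference was set after the values were seen, and 11.7% of all detected transcripts of the array met it. Replicate 1 was the lowest array in 5 of the 22 detected clock transcripts and in 27% of all detected transcripts. Transcripts of a like level (within 0.5 of the mean) did not share the low value of replicate 1 as a whole. For GRMZM2G014902_T01 there were 1864 of them, with a median difference between replicate 1 and the others of 0.01 and quartiles of -0.10 and 0.12. For GRMZM2G474769_T02 there were 7238, with a median of 0.03 and quartiles of -0.15 and 0.21.

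**Figure D3:**
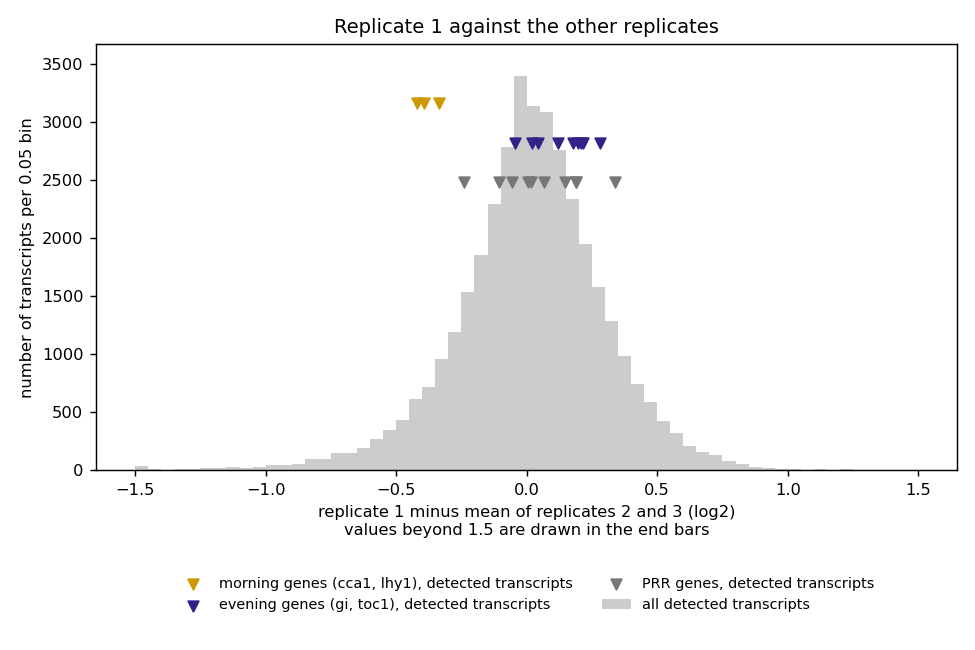
Number of detected transcripts (y axis, grey bars, bins of 0.05) by the log2 difference between replicate 1 and the mean of replicates 2 and 3 (x axis), with the detected clock gene transcripts as triangles placed at arbitrary heights by role. The 3 morning triangles lie between -0.42 and -0.33, and the 9 evening triangles between -0.05 and 0.28.

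Markers moved between the replicates too. All 5 detected transcripts of the green leaf list were higher in replicate 1 than in the mean of the others, by 0.01 to 1.09, and the highest differences were those of ppdk1, a pyruvate phosphate dikinase of carbon metabolism. Of these transcripts 3 were of ppdk1, whereas pep1 was level in replicates 1 and 3 (11.15) and me3 was highest in replicate 3 (8.92). The mean level of the 5 transcripts was 12.76, 12.14 and 12.25 in replicates 1, 2 and 3. Of the root list, 4 of 7 detected transcripts were higher in replicate 1, with differences from -0.41 to 0.41 and mean levels of 11.26, 11.23 and 11.19. Both transcripts of rtcs1 were lowest in replicate 1, with differences of -0.20 and -0.41, and GRMZM2G037368_T01 was equal in all arrays. Whether these differences have a part in those of the morning genes was not tested. In pooled roots, fewer cells of a type and less RNA per cell cannot be told apart.

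The reference table lists a second gene model, GRMZM2G175265, as a synonym of the same gene as the morning gene GRMZM2G474769. It is not on the list of clock genes, and its single transcript is described here only for this reason. GRMZM2G175265_T01 had levels of 10.32, 12.47 and 10.35 in replicates 1, 2 and 3, so replicate 2 exceeded the other arrays by 2.13 on average. The same quantity was 0.13 for GRMZM2G474769. The probe at position 1 of the transcript had deposited intensities of 690, 3763 and 566, and the probe at position 117 had 2303, 8529 and 2915. Both probes were therefore highest in replicate 2, the array that also stood apart on the whole, whereas in the 4 probes of GRMZM2G474769 replicate 2 lay between the others or level with replicate 3. The 2 models of 1 reference gene thus differed in their pattern over the arrays, and this difference was not tested.

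**Figure D4:**
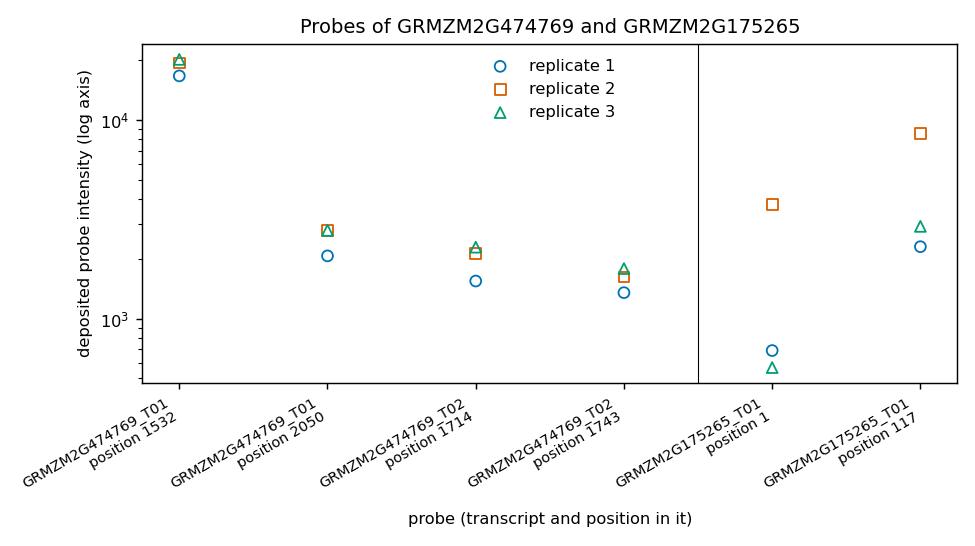
Deposited intensity (log axis) of the 4 probes of GRMZM2G474769 (left of the line) and the 2 probes of GRMZM2G175265 (right), 1 point per array. Replicate 2 lies above the other arrays in both probes on the right, at 3763 and 8529, and close to replicate 3 in the probes on the left.

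The gi copies, gigz1a and gigz1b, encode relatives of GIGANTEA and were both detected. gigz1b (GRMZM5G844173_T01) had levels of 12.20, 12.10 and 12.22 in replicates 1, 2 and 3, or 12.17 ± 0.06 (SD, n = 3), and lay 3.91 above the control threshold (limma, adjusted p = 1.17e-06). Of 6 transcripts of gigz1a (GRMZM2G107101), 5 were detected. GRMZM2G107101_T06 had levels of 13.81, 13.95 and 13.62, with replicate 2 the highest. GRMZM2G107101_T04 had levels of 13.10, 12.99 and 12.97, with replicate 1 the highest. The transcripts of this gene thus did not share an order of replicates. Averaged over all 6 transcripts, including the one not detected, the level of gigz1a spanned 0.05 over the arrays.

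The other detected transcripts of gigz1a each rested on 1 bright probe. GRMZM2G107101_T03 had levels of 10.21, 10.32 and 10.19, but its probe at position 2816 had intensities of 15271, 18906 and 16113 and its probe at position 4158 had 74.8, 69.2 and 68.1. The probe at position 4158 was below the control threshold in every array, and the other above it. GRMZM2G107101_T01 had levels of 8.94, 8.77 and 8.75, and GRMZM2G107101_T02 had 9.11, 8.69 and 8.98, each from 1 probe above the control threshold and 1 below it in every array. Their dim probes lay at positions 4421 and 4396. The 3 probes of GRMZM2G107101_T05, at positions 3476 to 3597, did not lie above the control threshold in all arrays, and this transcript had levels of 7.16, 7.35 and 7.53. The levels of GRMZM2G107101_T01, GRMZM2G107101_T02 and GRMZM2G107101_T03 are therefore means of a probe above the control threshold and a probe below it. Their bright probes were all lowest in replicate 1, although the levels of GRMZM2G107101_T01 and GRMZM2G107101_T02 were highest there. Positions are counted in each transcript separately.

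A pair of gigz1a probes at the same position number gave close values within each array. GRMZM2G107101_T01 and GRMZM2G107101_T02 each have a probe at position 3250, and these had intensities of 1856 and 1822 in replicate 1, 2314 and 2170 in replicate 2, and 2014 and 1912 in replicate 3. They differed by 0.03, 0.09 and 0.07 on the log2 scale. Both ranked replicate 2 highest and replicate 1 lowest. The sequences of the probes are not in the sources used here, so whether they are the same oligonucleotide was not tested.

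**Figure D5:**
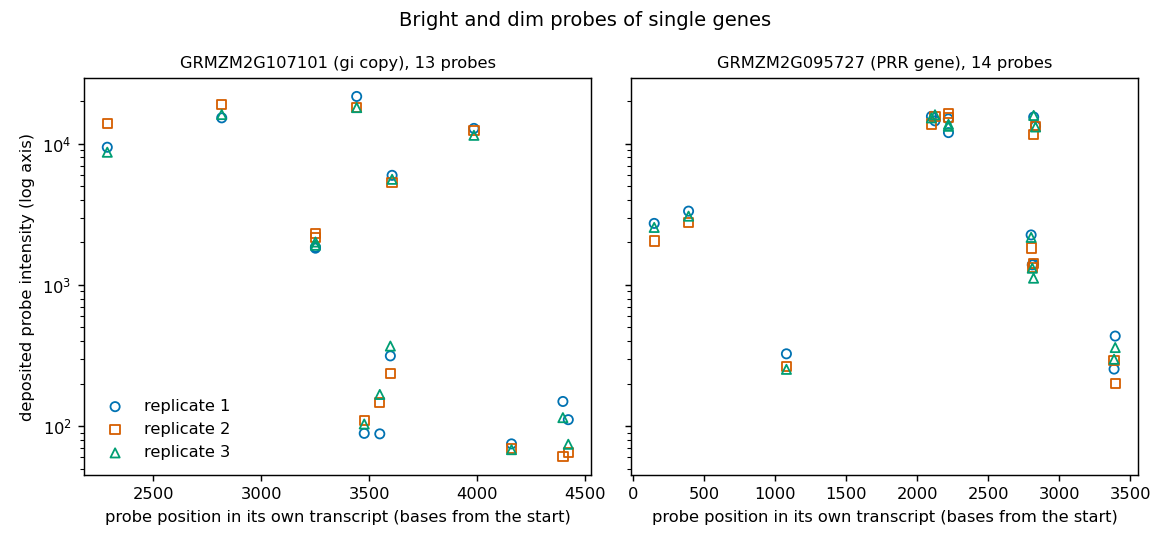
Deposited intensity (log axis) of every probe of gigz1a (GRMZM2G107101, 13 probes) and of the PRR gene GRMZM2G095727 (14 probes) against the probe's position in its own transcript (bases), 1 point per array. The probes of gigz1a at positions 4158, 4396 and 4421 lie at 60.7 to 149 in all arrays, below the control threshold, while that at position 3984 lies at 11486 to 12854, above it.

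The toc1 copies, averaged over transcripts, were lowest in replicate 2. GRMZM2G148453_T01 had levels of 10.69, 10.32 and 10.67 in replicates 1, 2 and 3, or 10.56 ± 0.21 (SD, n = 3), so replicate 2 lay 0.36 below the mean of the others. Most of this came from its dim probe at position 1179, with intensities of 700, 445 and 622. The bright probe at position 410 had 3778, 3522 and 4114. In replicate 2 they deviated by -0.37 and -0.11 from their means over the arrays. GRMZM2G020081_T01 had levels of 11.80, 11.59 and 11.59, and GRMZM2G020081_T02 had 11.96, 11.71 and 11.79. In these, replicate 1 was the highest and replicates 2 and 3 lay closer together. They were above the control threshold by 3.40 and 3.56 (limma, adjusted p = 2.12e-06 and 2.09e-06). GRMZM2G020081_T03 was not detected, with levels of 7.30, 7.18 and 7.48, and none of its 3 probes lay above the control threshold in any array.

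The PRR genes, whose relatives in Arabidopsis repress CCA1 and LHY during the day, were detected in 10 of 11 transcripts. The 6 transcripts of GRMZM2G095727 were all detected. GRMZM2G095727_T04 had levels of 13.77, 13.82 and 13.83 in replicates 1, 2 and 3, or 13.80 ± 0.03 (SD, n = 3), the smallest SD among the detected clock transcripts. GRMZM2G095727_T05 had levels of 13.93, 13.63 and 13.93, with replicate 2 below the others. They lay 5.54 and 5.57 above the control threshold (limma, adjusted p = 9.22e-07 and 1e-06). All 4 probes of these transcripts, at positions 2101 to 2834, had intensities between 11622 and 16052.

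The other transcripts of GRMZM2G095727 had no shared order of replicates. GRMZM2G095727_T01 had levels of 11.35, 10.89 and 11.13, and GRMZM2G095727_T02 had 10.82, 11.09 and 11.02, so replicate 1 was the highest in the first and the lowest in the second. Each had a probe above the control threshold in all arrays, at position 2220 or 2221. The other probe was above it in 2 arrays for GRMZM2G095727_T01 (position 3395) and in 1 array for GRMZM2G095727_T02 (position 3387). GRMZM2G095727_T03 had levels between 10.39 and 10.47, and GRMZM2G095727_T06 between 11.16 and 11.42.

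GRMZM2G005732 and PRR59 each had 1 transcript whose probes all lay above the control threshold in every array. GRMZM2G005732_T03 had levels of 11.24, 11.18 and 11.27, or 11.23 ± 0.04 (SD, n = 3). PRR59 (GRMZM2G135446_T02) had levels of 12.13, 12.20 and 12.05, or 12.12 ± 0.07 (SD, n = 3). Its 2 probes went opposite ways over the arrays, since the probe at position 1151 had intensities of 5081, 7789 and 5600 and that at position 2151 had 3908, 2807 and 3188. The small SD of this transcript therefore came with probes that differed. GRMZM2G005732_T02 had levels of 8.92, 8.49 and 8.96 (limma, adjusted p = 0.0115). GRMZM2G005732_T01 had levels of 8.35, 8.31 and 8.61, and PRR59 transcript GRMZM2G135446_T01 had 8.14, 7.95 and 8.19. The first lay just above the control threshold in every array and the second just below it.

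Of the 22 detected clock transcripts, 8 (36.4%) held a probe that was not above the control threshold in all arrays, against 32.7% of all detected transcripts. These 8 were of gigz1a (3), GRMZM2G095727 (3) and GRMZM2G005732 (2). Detection of these isoforms thus rested on part of their probes, while each of the 9 genes also had a detected transcript with every probe above it. By probe, 40 of 55 (72.7%) lay above it in all arrays, beside 57.5% of all probes.

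The range over the arrays exceeded 1, which is 2-fold, in 0 of the 22 detected clock transcripts and in 4.05% of all detected transcripts, so a count of 0 is near that share. The widest range among them was 0.48 and the median range was 0.27, beside 0.33 for all detected transcripts. The morning genes lay above that value, with a median range of 0.48 over their 3 transcripts and a lowest range of 0.35. The median SD of the 22 clock transcripts was 0.14, beside 0.17 for all detected transcripts, and that of the morning transcripts was 0.24. Median polish gives a lower spread to transcripts of 3 probes. Of those detected on the array, 18.3% had equal levels in 2 or 3 arrays, against 0 of the 3 detected clock transcripts with 3 probes. Over detected transcripts with any number of probes the share was 5.25%, against 0 of the 22 clock transcripts. With the mean of the probes in its place the median SD was 0.15 for the clock transcripts and 0.18 for all. No test of this difference was made.

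In these 3 arrays the morning genes were low where the evening genes were not. Gene levels were averaged over all transcripts, including those not detected, then over the genes of a role. They were expressed as deviations from the mean over the arrays. The morning genes deviated by -0.26, 0.15 and 0.10 in replicates 1, 2 and 3. The evening genes deviated by 0.07, -0.11 and 0.04, and the PRR genes by 0.03, -0.09 and 0.06. The morning genes were thus lowest in replicate 1. The evening genes were highest there by a small margin over replicate 3, and not all of them shared this. In replicate 1 the toc1 copies deviated by 0.11 and the gi copies by 0.03, and gigz1b was highest in replicate 3.

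The difference between morning and evening genes deviated by -0.33, 0.26 and 0.06 in replicates 1, 2 and 3, with an SD of 0.30 over the arrays. In replicate 1 it lay 0.49 below the mean of the others, which is 1.40-fold. Most of this came from the morning genes, which were 0.39 (1.31-fold) lower in replicate 1, while the evening genes were 0.10 higher. Set against the gi copies alone the value was -0.43, and against the toc1 copies alone -0.55. With detected transcripts only it was -0.53. Correction for a gradient over the surface of the arrays took the main value of -0.49 to -0.41. It took that of replicate 2 against the others from 0.39 to 0.16 and that of replicate 3 from 0.10 to 0.25. Replicate 3 was then the highest. With 3 arrays of 1 group there is no contrast to test, and no p is given.

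By gene, replicate 1 was the lowest array in both morning genes and in 0 of the 7 others. On the whole array, among genes with a detected transcript, replicate 1 was the lowest in 28% and replicate 2 in 39.8%. Replicate 2 was the lowest in 6 of the 7 evening and PRR genes, with gigz1a as the exception. The gaps were small in most of them, between 0.05 and 0.36 below the mean of the other arrays. Differences between genes of the same role were of this size too, since GRMZM2G148453 had an SD of 0.21 over the arrays and the other toc1 copy 0.10.

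Further identifiers chosen as clock or photoperiod candidates were present on the array in 13 of 14 cases. Of their 21 transcripts, 13 were detected and 11 called by limma, beside 62.6% and 61.3% of all transcripts. The reference gives a name to few of these identifiers. conz1 (GRMZM2G405368), a relative of the Arabidopsis photoperiod gene CONSTANS, had 4 of 4 transcripts detected, and GRMZM2G405368_T04 had levels of 12.21, 11.98 and 12.23 in replicates 1, 2 and 3. ZCN8 (GRMZM2G179264), a relative of the Arabidopsis flowering signal FT, was not detected, with levels of 6.81, 7.98 and 6.54. Replicate 1 lay more than 0.3 below the others in 0 of the 13 detected transcripts of this list. The share over all detected transcripts was 11.7%, so a count of 0 is not far from it. Differences on this list ran from -0.23, in GRMZM2G405368_T01, to 0.22, and 8 of the 13 were above 0. GRMZM2G045275_T01 was lowest in replicate 1, with levels of 14.06, 14.30 and 14.25 in replicates 1, 2 and 3.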

How the data were processed

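Roots of Urea+NBPT seedlings were measured on 3 one-color NimbleGen arrays, 1 for each replicate. The authors scanned the Cy3 signal, extracted probe values with NimbleScan and deposited an intensity for each probe on a linear scale. The labels also name RMA. The deposited intensities appear quantile normalized, since sorted values differed by at most 0.183% at any rank, although the methods call such files raw. The value table of the series held the same intensities, with 0 probes differing. With R 4.3.3 and limma 3.58.1, background was corrected by normexp (offset 50), the arrays were brought to a common distribution by quantiles, and the log2 probe values of each transcript were combined by median polish. Limma was fitted to the level minus the 95th percentile of that array's random control probes (the control threshold), over 59756 transcripts. The probe summary, the limma fit and the range over arrays were tested on simulated data, and the other steps were not. The number of arrays limits the precision.

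The members and lists were chosen with earlier results of these data known. All 9 genes and all of their transcripts were to be named. Alternatives were another detection threshold, detection in at least 2 arrays, no background correction, median scaling, the mean of probes, the value table, other gene summaries and leaving out each replicate. The reference table belongs to another assembly (Zm-B73-REFERENCE-NAM-5.0) than the array, so no coordinates are given. It matched 7 of 9 genes and served for names only. Replicate order was counted only where no arrays tied. Motif searches in promoters were planned and not made, since no sequences were used here.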

Additional observations from a re-analysis of the deposited data

How the results depend on the processing

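No paired analysis was possible because all arrays belong to 1 group. The number of detected clock transcripts was 22 under every alternative except the 99th percentile threshold, where it was 18. The number called by limma was 21, and 18 at that threshold. The level above background kept its direction and its side of the threshold in 221 of 225 transcript settings and turned negative at the 99th percentile in 4, with -0.83 for GRMZM2G005732_T01, -0.46 for GRMZM2G005732_T02, -0.44 for GRMZM2G107101_T01 and -0.33 for GRMZM2G107101_T02. A higher threshold lowers these values by construction. The count with a range over 1 was 0 under every alternative run. The morning genes were lower in replicate 1 in 16 of 16 values over both genes and all settings run on genes, with differences from -0.45 to -0.24. These include the main values, -0.38 and -0.39, which the value table and median scaling only repeated. The value table holds the same intensities, and the deposited arrays were already alike in distribution. Those settings likewise nearly repeated the main levels among the 225 transcript settings. Leaving out 1 replicate gave -0.57 to -0.40 for the difference between morning and evening genes in replicate 1, 0.20 to 0.57 in replicate 2 and -0.20 to 0.40 in replicate 3, beside -0.49, 0.39 and 0.10 with all arrays. Without replicate 2 the value of replicate 3 was 0.40, since replicate 1 is then its only comparison. Removal of a gradient across the array, the use of only probes above the control threshold and leaving out replicates in this difference were added after seeing the data. Signal near the random control probes limits what can be said of the isoforms that were not detected.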
